A study of Mus musculus with 16 samples.

Results

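Transcripts of 36 listed mouse genes of the DNA damage checkpoint, homologous recombination and the Fanconi pathway were compared between *APOE4* and *APOE3* brain endothelial cells. The members were taken by name from a list of such genes, and all 36 were found in a count table of 39057 genes. All 36 also passed a filter on low counts that kept 12481 genes in all.

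Primary endothelial cells of the cerebral cortex were grown in 16 cultures, each giving 1 library. There were 8 cultures per genotype, 4 of them male and 4 female. In the paper n is either a single animal or an isolation from grouped animals, depending on the assay. The mice were *APOE3* or *APOE4* targeted replacement animals of 21 to 28 days, in which a human *APOE* isoform is expressed from the promoter of the mouse gene. No experimental treatment was given, but every culture had been selected with 8 μg/ml puromycin, an antibiotic that brain endothelial cells tolerate better than other brain cells, and grown to confluence. The cells were not sorted, so the counts describe a whole culture, and in such bulk RNA a larger number of cycling cells and more RNA per cell cannot be told apart.

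A cell that meets a broken or stalled replication fork signals through the kinases ATR and ATM, which act on CHEK1 and CHEK2 to hold the cell cycle. Homologous recombination then trims the broken end, prepares the exposed strand with the help of BRCA1, PALB2 and BRCA2, and copies the lost sequence from the sister chromatid, and the Fanconi proteins open the way to this repair at crosslinked DNA. Many of these genes are transcribed mainly from late G1 to G2 in dividing cells, often under E2F factors. Endothelial cells of the adult brain rarely divide, while cultured ones can. For confluent cultures of this kind the paper reports few nuclei positive for bromodeoxyuridine, its measure of proliferation, and no difference by genotype. It also reports no genotype effect on its markers of DNA damage. Those assays were not compared with the counts used here.

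Promoter sequence is shown for 5 members that were higher in *APOE4* libraries and that the results below turn on, and for Atm as a member whose level was flat. The windows run from 250 bases before to 50 bases after the start site in RefSeq (GRCm38.p6), are written along the gene's strand, and carry 2 kinds of string in capitals. The first is an E2F-type string (the letters TTCCCGC, the variant TTGGCGC, or else the variant TTCGCGC, on either strand), as E2F factors bind at S-phase genes, and the second is a CCAAT box on either strand (ATTGG when reversed). The windows are chr9:36726609-36726908 (minus strand) for Chek1, chr11:101551906-101552205 (minus) for Brca1, chr5:150522371-150522670 (plus) for Brca2, chr4:126556730-126557029 (plus) for Clspn, chr7:92874198-92874497 (minus) for Ddias and chr9:53536622-53536921 (minus) for Atm.
Chek1: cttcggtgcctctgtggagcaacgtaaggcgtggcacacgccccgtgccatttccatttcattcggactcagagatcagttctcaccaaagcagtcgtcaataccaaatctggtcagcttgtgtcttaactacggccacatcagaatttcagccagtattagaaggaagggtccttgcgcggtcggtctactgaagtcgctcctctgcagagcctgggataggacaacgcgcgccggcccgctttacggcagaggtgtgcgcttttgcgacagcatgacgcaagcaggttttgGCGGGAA
Brca1: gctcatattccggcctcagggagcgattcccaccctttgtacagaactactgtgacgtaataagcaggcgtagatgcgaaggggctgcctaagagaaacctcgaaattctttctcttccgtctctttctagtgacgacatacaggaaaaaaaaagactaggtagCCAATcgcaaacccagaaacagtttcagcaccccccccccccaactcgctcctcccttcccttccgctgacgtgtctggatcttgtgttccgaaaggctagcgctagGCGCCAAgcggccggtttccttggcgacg
Brca2: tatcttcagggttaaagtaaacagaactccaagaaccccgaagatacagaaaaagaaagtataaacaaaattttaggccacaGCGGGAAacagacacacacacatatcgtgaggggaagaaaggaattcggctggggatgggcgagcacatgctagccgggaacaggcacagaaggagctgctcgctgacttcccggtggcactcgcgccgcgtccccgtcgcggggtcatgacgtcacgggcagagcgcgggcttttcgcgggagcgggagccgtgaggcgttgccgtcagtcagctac
Clspn: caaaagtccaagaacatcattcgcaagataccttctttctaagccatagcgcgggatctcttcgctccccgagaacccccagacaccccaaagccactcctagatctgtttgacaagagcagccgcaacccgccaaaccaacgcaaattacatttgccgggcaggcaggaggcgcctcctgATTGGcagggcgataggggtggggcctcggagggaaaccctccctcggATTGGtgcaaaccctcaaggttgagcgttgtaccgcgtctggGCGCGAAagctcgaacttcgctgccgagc
Ddias: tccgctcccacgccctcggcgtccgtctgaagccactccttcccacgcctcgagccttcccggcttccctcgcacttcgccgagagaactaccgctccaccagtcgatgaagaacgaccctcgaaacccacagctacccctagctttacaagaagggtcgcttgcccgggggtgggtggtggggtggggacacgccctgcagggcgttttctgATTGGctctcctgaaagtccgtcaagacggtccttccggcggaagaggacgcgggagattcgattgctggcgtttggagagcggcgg
Atm: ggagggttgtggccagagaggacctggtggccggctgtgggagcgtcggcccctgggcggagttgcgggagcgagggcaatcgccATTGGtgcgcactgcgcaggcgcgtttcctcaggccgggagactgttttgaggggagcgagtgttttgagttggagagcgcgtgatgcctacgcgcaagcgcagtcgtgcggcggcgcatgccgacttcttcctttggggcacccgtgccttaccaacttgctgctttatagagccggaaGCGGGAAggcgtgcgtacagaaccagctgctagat

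Chek1, Brca1, Clspn and Atm held an E2F-type string just after the start site, Brca2 held one well before it, and Ddias held none. The table had start sites for 28 of the 36 members, and the promoters of 15 of these 28 genes (53.6%) held an E2F-type string. The share was 17.2% of the 9547 genes tested that had a promoter in the table and 9.20% of all 27025 genes in it. Among members the string was found in 9 of 16 that were higher in *APOE4* and in 6 of 12 that did not pass the test, so its presence did not follow the call. A CCAAT box was found in 17 of 28 members (60.7%) and in 43.1% of the tested genes. The string TTTGAA on either strand, the core of the cell cycle homology region, was found in the windows of Bard1 and Eme1 only, 2 of 28 members (7.14%) against 14.1% of the tested genes. These matches are descriptions of the sequence, and binding was not measured.

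Total counts on genes were 14276942 to 16603076 with *APOE3* and 12717847 to 18624417 with *APOE4* (log2 totals compared by a two-sided exact permutation test, p = 0.758), and members had from 1 to 1858 counts in a library. Human *APOE* had 15504 to 22318 counts in *APOE3* and 7672 to 14722 in *APOE4* libraries, and Xist had 0 to 12 counts in male and 10267 to 13325 in female libraries. All 21 brain endothelial markers were detected in every library. They summed to 21113 to 22421 CPM (reads of a gene scaled to the normalized depth of its library) in *APOE3* and 20548 to 22918 CPM in *APOE4* libraries. Emcn was higher in *APOE4* (log2 fold change 0.14) and Slco1c1 lower (-0.31). Of the 21 endothelial markers 15 had a log2 fold change below 0 and 6 above it, with a median of -0.06. At an unadjusted p under 0.05 were 8 of the 21, in either direction. The 12 pericyte and smooth muscle markers summed to 192 to 359 and 226 to 344 CPM, with Kcnj8 at 0 in 11 libraries, and the 7 fibroblast markers to 13.3 to 65.3 and 10.4 to 85.1 CPM, with Dpt at 0 in all 16. The highest count of any of the 9 microglia and macrophage markers was 7, and Itgam, P2ry12 and C1qa were at 0 in all 16 libraries. Astrocyte markers summed to 31.8 to 41.6 and 33.4 to 43.3 CPM, mostly Gja1, while Slc1a2 was at 0 in 15 libraries, neuron markers to 8.90 to 12.8 and 10.8 to 15.6 CPM, and oligodendrocyte markers to 0.669 to 1.97 and 0.504 to 1.65 CPM. None of the markers of these other cell types that passed the filter was called, but most had a log2 fold change above 0. Their median log2 fold change was 0.30 over 8 pericyte and smooth muscle markers, 0.30 over 4 fibroblast, 0.39 over 2 astrocyte and 0.42 over 2 neuron markers, and 1 oligodendrocyte marker had -0.59. At an unadjusted p under 0.05 were 2, 1, 2, 2 and 1 of them, in that order, and their part in the results below was not tested.

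The question put to the members was whether their transcripts differ with *APOE* genotype. Of the 36 members, 19 (52.8%) were higher in *APOE4* brain endothelial cells and 0 were lower by edgeR's quasi-likelihood test with a Benjamini-Hochberg adjusted p under 0.05, here called a call. At an unadjusted p under 0.05, 1 member, Fancc, lay on the lower side. Of all 12481 genes tested, 12.8% were called, 6.71% as higher and 6.09% as lower. Among 62 other tested genes of the same pathways, 14.5% were higher. The members and this other list were chosen with earlier results of these data known. These shares are therefore a description and not an independent test. The log2 fold change of *APOE4* against *APOE3* (log2 FC, given with its standard error, SE) was above 0 in 32 of 36 members, with a median of 0.31 over the members and of -0.00022 over all genes. The calls ran from 0.20 for Timeless to 0.85 for Ddias. In 15 of the 19 called members all 8 *APOE4* libraries exceeded the *APOE3* median, and in the other 4 (Timeless, Blm, Rad51c and Eme1) 7 of 8 did. The genotypes did not overlap in 2 members, Ddias and Chek1, whereas 0.256% of all genes had every *APOE4* library above every *APOE3* library.

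**Figure D1:**
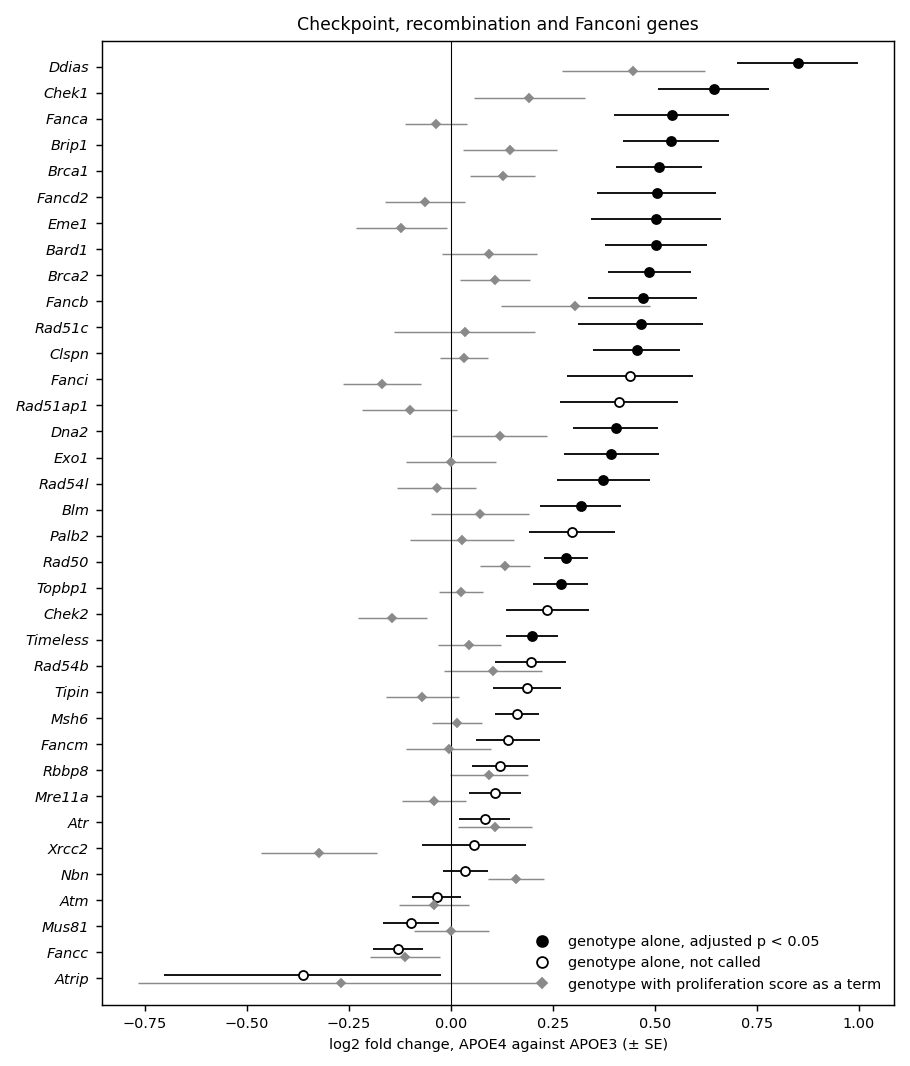
Log2 fold change of each of the 36 members, *APOE4* against *APOE3*, with its standard error (n = 8 libraries per genotype), where filled circles passed the test, open circles did not, and grey diamonds are from the fit that also has the proliferation score as a term. The circles lie to the right of 0 for 32 members, and 12 of the 36 diamonds lie on the other side of 0 from their circle.

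Atr and Atm, the kinases at the head of the checkpoint, differed little between the genotypes. In their group of 5 members Topbp1, which encodes the activator of ATR, was the only 1 to be called. It had 64.5 CPM in the lowest, 77.4 in the median and 89.7 in the highest *APOE3* library, and 81.8, 90.3 and 111 CPM in *APOE4* libraries. The genotypes overlapped, with 4 *APOE4* libraries above every *APOE3* library and the other 4 within the *APOE3* range (log2 FC 0.27, SE 0.067, adjusted p = 0.0148). Atr itself had medians of 16.9 and 18.3 CPM (log2 FC 0.08, SE 0.063) and Atm of 26.6 and 25.9 CPM (-0.03, SE 0.061), and neither passed the test. Chek2, the kinase downstream of ATM, had 14.8 to 22.4 CPM in *APOE3* and 15.6 to 28.5 CPM in *APOE4* libraries (0.24, SE 0.102, adjusted p = 0.129). Atrip, the partner of ATR, was near the limit of detection, with 1 to 21 counts per library, and its fold change of -0.36 had an SE of 0.339.

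At the replication fork 3 of 4 members were higher in *APOE4* libraries. Chek1 (ENSMUSG00000032113.16, chromosome 9 from 36708482 to 36727065, minus strand), the kinase through which ATR holds the cell cycle, had 2.81, 4.64 and 5.28 CPM in the lowest, median and highest *APOE3* library and 5.32, 6.20 and 9.29 CPM in *APOE4* libraries. All 8 *APOE4* libraries lay above all 8 *APOE3* libraries, by a small gap between *APOE3* replicate 31 and *APOE4* replicate 40. The log2 FC of Chek1 was 0.64 (SE 0.136, adjusted p = 0.00817). Clspn, the adaptor that brings CHEK1 to ATR, had 25.5, 33.4 and 48.6 CPM in *APOE3* and 40.7, 47.8 and 61.3 CPM in *APOE4* libraries. Its genotypes overlapped, since only 2 *APOE4* libraries exceeded the highest *APOE3* library, but 6 *APOE3* libraries lay below every *APOE4* library (log2 FC 0.45, SE 0.106, adjusted p = 0.0118). Timeless, which with TIPIN keeps the helicase and polymerase together, had 28.7, 33.6 and 35.7 CPM in *APOE3* and 33.4, 38.2 and 46.1 CPM in *APOE4* libraries. Its fold change of 0.20 (SE 0.064, adjusted p = 0.0440) was the smallest of the called members and kept its call in 6 of 16 leave-one-out fits, in which 1 library at a time was dropped. Tipin had medians of 15.97 and 17.9 CPM and did not pass (0.19, SE 0.084, adjusted p = 0.144).

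Members that sense a break and trim its ends were called in 4 of 7 cases. Rad50 (ENSMUSG00000020380.16, chromosome 11 from 53649519 to 53707319, minus strand), the zinc-hook ATPase that bridges DNA ends, had 27.4, 30.4 and 33.6 CPM in *APOE3* and 32.5, 36.6 and 41.1 CPM in *APOE4* libraries. A single *APOE4* library, replicate 36, lay within the *APOE3* range, and the fold change of 0.28 was, after that of Ddias, the largest relative to its SE among the members (SE 0.054, adjusted p = 0.0062). The other subunits of the same complex gave different values, since Mre11a, the nuclease, stood at a log2 FC of 0.11 (SE 0.064, adjusted p = 0.273) and Nbn, the ATM-binding subunit, one of 0.04 (SE 0.054, adjusted p = 0.708). The difference between Rad50 and its partners was not tested.

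Exo1, an exonuclease of long-range resection, had 5.43, 8.80 and 10.1 CPM in *APOE3* and 9.001, 10.8 and 15.5 CPM in *APOE4* libraries (log2 FC 0.39, SE 0.115, adjusted p = 0.0311). Dna2, the nuclease-helicase of the parallel route, had 6.38, 7.73 and 10.4 CPM in *APOE3* and 8.93, 10.9 and 12.4 CPM in *APOE4* libraries (0.40, SE 0.104, adjusted p = 0.0175). Blm, the helicase that works with DNA2, had 9.38, 10.9 and 14.7 CPM in *APOE3* and 10.7, 14.1 and 17.0 CPM in *APOE4* libraries (0.32, SE 0.099, adjusted p = 0.0404). Of these, Exo1 and Dna2 had all *APOE4* libraries above the *APOE3* median, and Blm had 3 *APOE4* libraries above every *APOE3* library. Rbbp8, which starts resection with the MRE11 complex, had medians of 21.6 and 24.6 CPM and did not pass the test (0.12, SE 0.067, adjusted p = 0.248).

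The genes of the BRCA complex and its partners on the trimmed end were called in 4 of 6 cases. Brca1 (ENSMUSG00000017146.12, chromosome 11 from 101488764 to 101551955, minus strand) had 14.7, 19.7 and 27.2 CPM in *APOE3* and 24.1, 28.1 and 36.3 CPM in *APOE4* libraries. All but 1 *APOE3* library, replicate 31, lay below every *APOE4* library, with a log2 FC of 0.51 (SE 0.105, adjusted p = 0.00748). Bard1, the partner with which BRCA1 forms a ubiquitin ligase, had 7.04, 10.0 and 14.4 CPM in *APOE3* and 11.6, 14.5 and 19.4 CPM in *APOE4* libraries (0.50, SE 0.125, adjusted p = 0.0148). Brca2 (ENSMUSG00000041147.10, chromosome 5 from 150522630 to 150570329, plus strand), which acts on single-stranded DNA at the break, had 13.2, 19.2 and 21.8 CPM in *APOE3* and 20.2, 26.7 and 32.2 CPM in *APOE4* libraries (0.49, SE 0.103, adjusted p = 0.00817). All but 1 *APOE4* library, replicate 36, lay above every *APOE3* library for Brca2.

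Rad51c, which forms complexes with XRCC2 and other proteins of strand exchange, had 2.14, 3.805 and 4.42 CPM in *APOE3* and 3.31, 4.74 and 6.33 CPM in *APOE4* libraries. Its log2 FC of 0.46 (SE 0.152, adjusted p = 0.0492) had the highest adjusted p among the called members. Palb2, the bridge between BRCA1 and BRCA2, had medians of 4.57 and 5.93 CPM, with all 8 *APOE4* libraries above the *APOE3* median, but did not pass (0.30, SE 0.105, adjusted p = 0.0651). Xrcc2 had medians of 5.87 and 5.42 CPM and a log2 fold change of 0.06 (SE 0.127).

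The other members of strand exchange were called in 1 of 3 cases. Rad54l, a motor protein that works along DNA in strand exchange, had 8.64, 11.3 and 16.9 CPM in *APOE3* and 12.4, 14.6 and 18.6 CPM in *APOE4* libraries (log2 FC 0.37, SE 0.115, adjusted p = 0.0372). Only 2 *APOE4* libraries exceeded the highest *APOE3* library, replicate 31, while 6 *APOE3* libraries lay below all *APOE4* libraries. Rad51ap1, which stimulates strand invasion, had a larger fold change of 0.41 with an SE of 0.144 and did not pass (adjusted p = 0.0636), and Rad54b had one of 0.20 (SE 0.087, adjusted p = 0.142). The exons of Rad54b overlap those of Fsbp on the same strand over 35.8% of their length, so reads of the pair may not be separable.

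**Figure D2:**
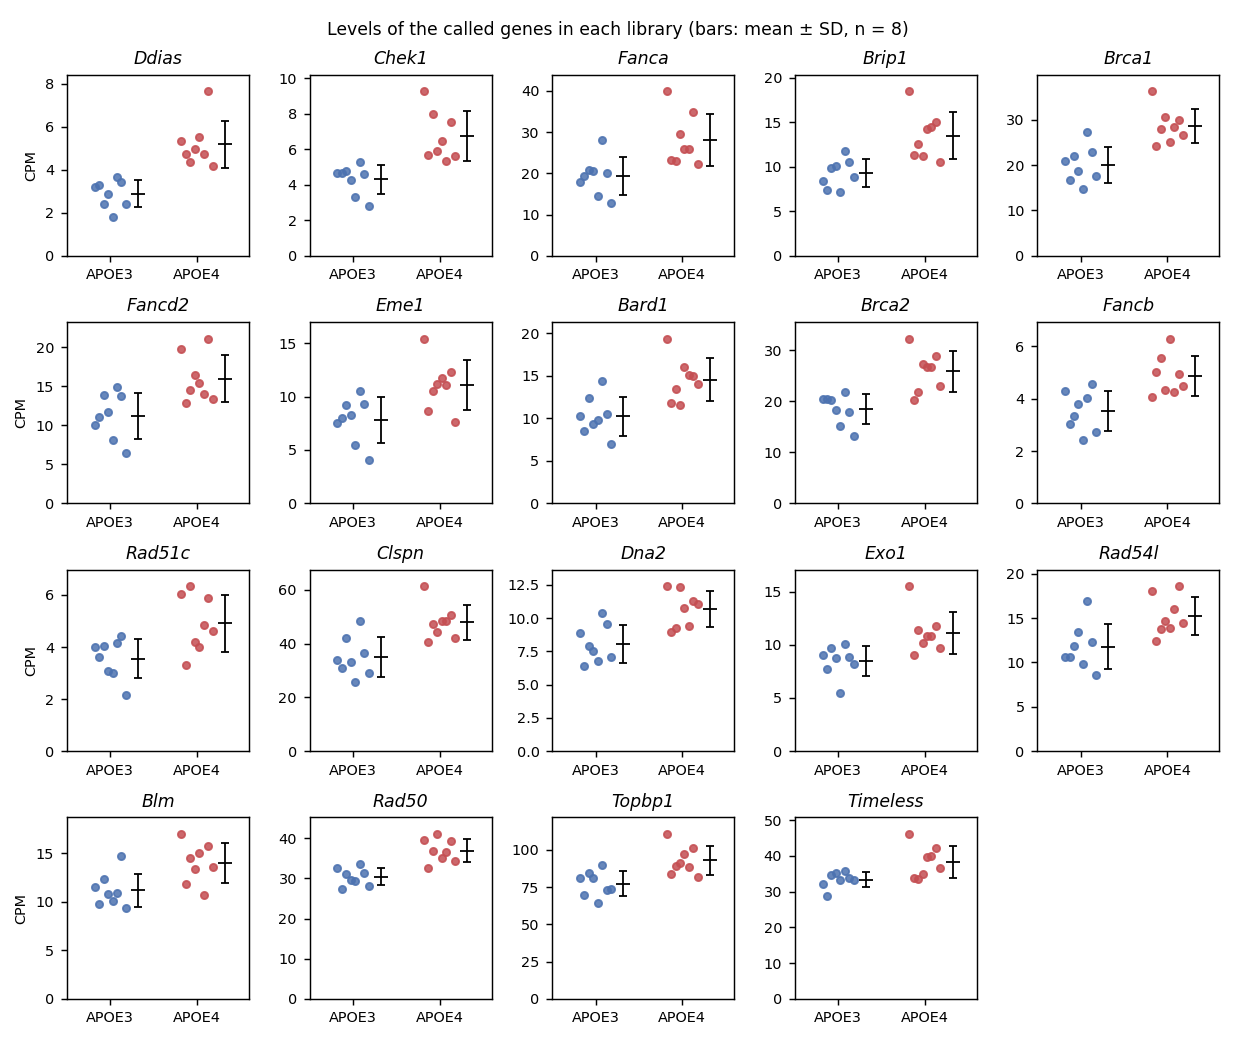
CPM of the 19 called members in each library, with *APOE3* in blue, *APOE4* in red and bars for mean ± SD (n = 8); the axes start at 0 and differ between panels. The groups are separate for Ddias and Chek1 and overlap for the other 17 members.

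Of the Fanconi core complex and its DNA anchor 2 of 4 members were called. Fanca had 12.7, 19.8 and 28.1 CPM in *APOE3* and 22.4, 25.9 and 40.0 CPM in *APOE4* libraries (log2 FC 0.54, SE 0.140, adjusted p = 0.0179). Among its *APOE3* libraries all but replicate 31 lay below every *APOE4* library. Fancb, on the X chromosome, had 2.43, 3.57 and 4.55 CPM in *APOE3* and 4.05, 4.72 and 6.30 CPM in *APOE4* libraries (0.47, SE 0.133, adjusted p = 0.0270). Fancc, another core subunit, was among the 4 members below 0, with medians of 20.6 and 18.04 CPM and a fold change of -0.13 that did not pass the test (SE 0.060, adjusted p = 0.159). Fancm, the translocase that anchors the complex, had medians of 10.3 and 11.2 CPM (0.14, SE 0.078, adjusted p = 0.246).

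Fancd2, which together with FANCI is ubiquitinated by the core complex, had 6.50, 11.4 and 14.9 CPM in *APOE3* and 12.9, 15.0 and 21.1 CPM in *APOE4* libraries (log2 FC 0.50, SE 0.145, adjusted p = 0.0286). Fanci had a similar fold change of 0.44 with more spread, from 7.60 to 16.4 CPM in *APOE3* and from 10.1 to 20.3 CPM in *APOE4* libraries, and did not pass (SE 0.154, adjusted p = 0.0649). Brip1, the helicase also known as FANCJ that binds BRCA1, had 7.21, 9.35 and 11.8 CPM in *APOE3* and 10.5, 13.4 and 18.5 CPM in *APOE4* libraries. Of its *APOE4* libraries 5 lay above every *APOE3* library (0.54, SE 0.118, adjusted p = 0.00886).

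The subunits of the MUS81 nuclease, which cuts joined DNA molecules, gave different values. Eme1, the partner subunit, had 4.09, 8.11 and 10.6 CPM in *APOE3* and 7.61, 11.1 and 15.4 CPM in *APOE4* libraries (log2 FC 0.50, SE 0.160, adjusted p = 0.0429). Mus81, the catalytic subunit, had medians of 20.6 and 19.4 CPM and did not pass (-0.10, SE 0.068, adjusted p = 0.362). The call of Eme1 was kept in 5 of 16 leave-one-out fits, and the difference between Eme1 and Mus81 was not tested.

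Ddias (ENSMUSG00000030641.10, chromosome 7 from 92857525 to 92874247, minus strand), described as an apoptosis suppressor induced by DNA damage, had the largest fold change of the members. It had 1.79, 3.04 and 3.66 CPM in the lowest, median and highest *APOE3* library and 4.17, 4.85 and 7.67 CPM in *APOE4* libraries, from 28 to 141 counts. Every *APOE4* library lay above every *APOE3* library, with *APOE4* replicate 41 far above the rest, and the log2 FC reached 0.85 (SE 0.148, adjusted p = 0.00542). Msh6, a mismatch sensor and the most abundant member per length, had 40.1, 41.3 and 46.6 CPM in *APOE3* and 42.3, 46.1 and 55.0 CPM in *APOE4* libraries. It had the lowest adjusted p of the 17 members without a call (0.16, SE 0.054, adjusted p = 0.0520), and all 8 *APOE4* libraries exceeded its *APOE3* median.

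Scaled to the length of their exons, the members differed in level by far more than the genotypes did. Mean levels in *APOE3* and *APOE4* libraries were 9.67 and 10.8 CPM per kilobase for Msh6, 8.80 and 10.0 for Tipin, 8.42 and 8.62 for Nbn, and 6.87 and 8.28 for Topbp1. Low levels were found for genes such as Palb2 at 0.654 and 0.803 and Rad51c at 0.811 and 1.12 CPM per kilobase, for Chek1 at 0.929 and 1.45, and for Ddias at 0.780 and 1.40. Within the ATR pair the mean level of Atr was 0.731 and 0.774 CPM per kilobase and that of Atrip 0.121 and 0.0932, the lowest of all members. The length used merges the exons of all annotated transcripts of a gene. For Atr it was 23629 bases, the longest of the members, so its scaled level and its rank may be too low. Calls were spread over much of this range, from Topbp1 and Rad50 (5.65 and 6.87 CPM per kilobase) to Ddias and Rad51c. By mean *APOE3* level, the members above Topbp1 (Msh6, Tipin and Nbn) and below Ddias (Palb2, Atr and Atrip) were not called.

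**Figure D3:**
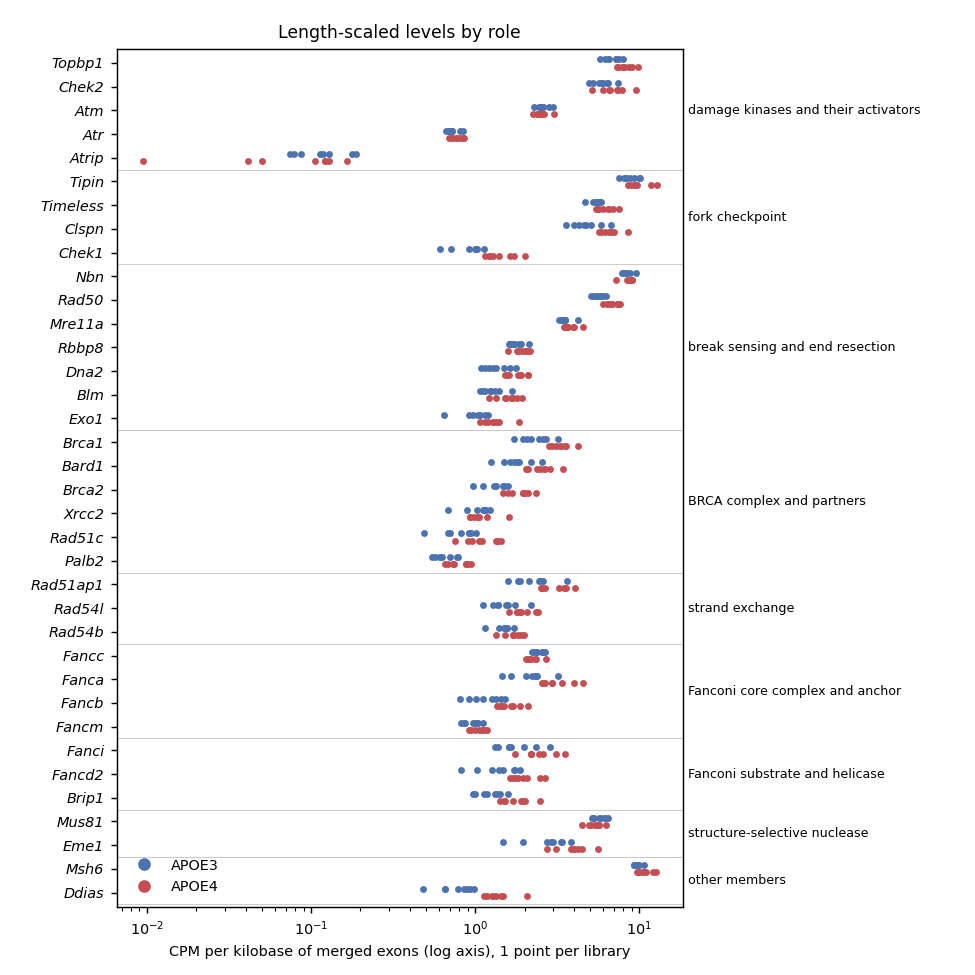
CPM per kilobase of merged exons (log axis) of each member in each of the 16 libraries, grouped by role, with *APOE3* in blue above *APOE4* in red. Msh6, Tipin, Nbn and Topbp1 lie near the top of the range and Atrip lies at its bottom, with 1 *APOE4* library far below the rest.

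The members tended to be high or low in the same libraries. Within *APOE3*, replicate 31 had the highest level of 22 of the 36 members and of 16 of the 19 called ones, while replicates 33 and 30 had the lowest level of 13 and 12 members. Within *APOE4*, replicate 35 had the highest level of 19 members and replicate 36 the lowest of 15. The members share a library in each case, so these counts are not independent of each other.

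The proliferation markers moved with genotype too. Of 36 such markers, none of them a member, 33 were higher in *APOE4* libraries (median log2 fold change 0.57), and Mcm2, Mcm5 and Mcm7 did not pass the test. Their mean log2 CPM, here the proliferation score, was 5.11 in the lowest, 5.57 in the median and 6.08 in the highest *APOE3* library and 5.81, 6.07 and 6.55 in *APOE4* libraries. The genotypes overlapped on it, but 6 *APOE3* libraries lay below every *APOE4* library and 3 *APOE4* libraries above every *APOE3* library. Score and genotype can therefore be told apart only in part. Within *APOE3* the score was highest in replicate 31 (6.08) and lowest in replicates 33 (5.11) and 30 (5.13). Within *APOE4* it was highest in replicate 35 (6.55) and lowest in replicate 36 (5.81). These are the libraries named above for the extreme levels of many members.

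In a fit with genotype and the score as terms, 0 of 36 members and 0 of all genes were called for genotype by edgeR's quasi-likelihood test. At an unadjusted p under 0.05 were 4 of 36 members (11.1%) and 7.26% of all genes. These were Rad50 with a log2 fold change of 0.13 (SE 0.061), Nbn with 0.16 (SE 0.069), Xrcc2 with -0.32 (SE 0.141) and Ddias with 0.45 (SE 0.175). The median log2 fold change of the members was 0.03 in this fit. Chek1 stood at 0.19 (SE 0.136), Brca1 at 0.13 (SE 0.080), Brca2 at 0.11 (SE 0.086) and Fanca at -0.04 (SE 0.076).

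The same fit gives each member a slope, its change in log2 CPM per unit of the score between libraries of 1 genotype. The slope was called as rising in 24 of 36 members (66.7%), against 9.47% of all genes, and as falling in 0. Largest were those of Eme1 (1.19, SE 0.149), Fanci (1.15, SE 0.124), Fancd2 (1.08, SE 0.131) and Fanca (1.07, SE 0.099), which rose about as steeply as the score itself. The rising members included all 6 of the BRCA group (Brca1, Bard1, Palb2, Brca2, Rad51c and Xrcc2) and all 3 of FANCD2, FANCI and BRIP1. Of the 19 members called for genotype 17 also had a called slope, the exceptions being Timeless (0.28, SE 0.098, adjusted p = 0.0531) and Fancb (0.32, SE 0.250, adjusted p = 0.427). A further 7 members had a called slope and no call for genotype, namely Chek2, Tipin, Palb2, Xrcc2, Rad51ap1, Fanci and Msh6. With neither call were 10 members, namely Atr, Atrip, Atm, Mre11a, Nbn, Rbbp8, Rad54b, Fancc, Fancm and Mus81. Of the members with a promoter in the table an E2F-type string was found in 12 of 19 with a rising slope and in 3 of 9 without one.

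**Figure D4:**
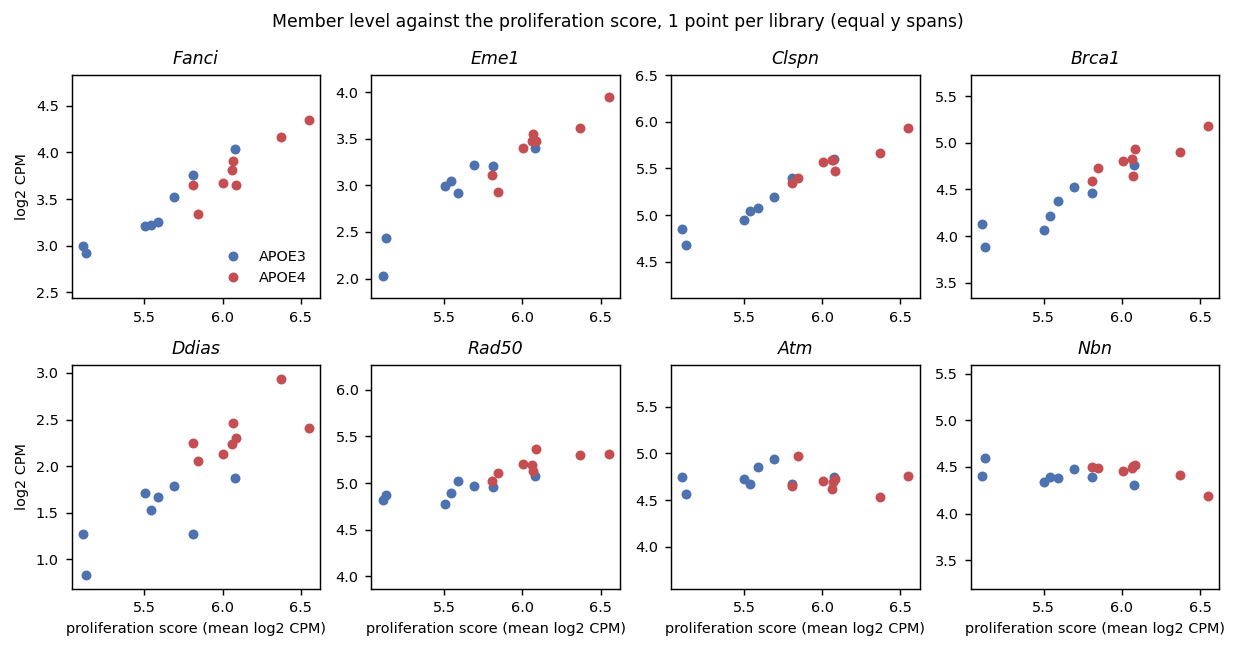
Log2 CPM of 8 members against the proliferation score, with 1 point per library, *APOE3* in blue, *APOE4* in red and the same span on every vertical axis. Fanci, Eme1, Clspn and Brca1 rise with the score in both genotypes, Ddias and Rad50 rise and have most *APOE4* points above the *APOE3* points nearest in score, and Atm and Nbn do not rise.

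Males and females were compared in a fit of 4 groups of 4 libraries. No gene at all was called in either sex alone (0% of all genes within males and 0% within females by edgeR's quasi-likelihood test), so no member was. At an unadjusted p under 0.05, 13 of 36 members were higher in *APOE4* males and 21 of 36 in *APOE4* females, against 7.65% and 9.92% of all genes. All 19 called members had a log2 fold change above 0 in both sexes, from 0.17 to 0.72 in males and from 0.22 to 0.98 in females. Chek1 stood at 0.65 in males and 0.65 in females (SE 0.19 each), Ddias at 0.72 and 0.98 (SE 0.22 each), Brca1 at 0.60 and 0.42 (SE 0.15 each) and Brca2 at 0.35 and 0.63 (SE 0.14 each). The difference between the sexes was called for 0 genes (lowest adjusted p among the members 0.9999). At an unadjusted p under 0.05 it was met by 1 member, Rbbp8, whose fold change was larger in females by 0.33 on the log2 scale, and by 2.76% of all genes.

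Other genes of the same pathways were counted from a list of 63 that holds no member, of which 62 passed the filter. In *APOE4* libraries 9 of the 62 were higher (14.5%) and 2 were lower, and the list's median log2 FC was 0.06. Large fold changes were those of Gen1, a nuclease that cuts joined chromatids (0.71, SE 0.152, adjusted p = 0.00824), Polq, the polymerase of end joining by short homology (0.53, SE 0.127, adjusted p = 0.0131), and Rad18, a ubiquitin ligase at stalled forks (0.36, SE 0.108, adjusted p = 0.0337). Of the 11 genes of non-homologous end joining, the repair route that needs no sister chromatid, 0 were called by edgeR (median 0.03). Over all genes 12.8% were called, and a list of 11 is too short to set 0 calls apart from that share. A difference between repair routes was not tested. Among the 11 genes 1, Xrcc5, had an unadjusted p under 0.05 (log2 FC 0.32, SE 0.116).

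**Figure D5:**
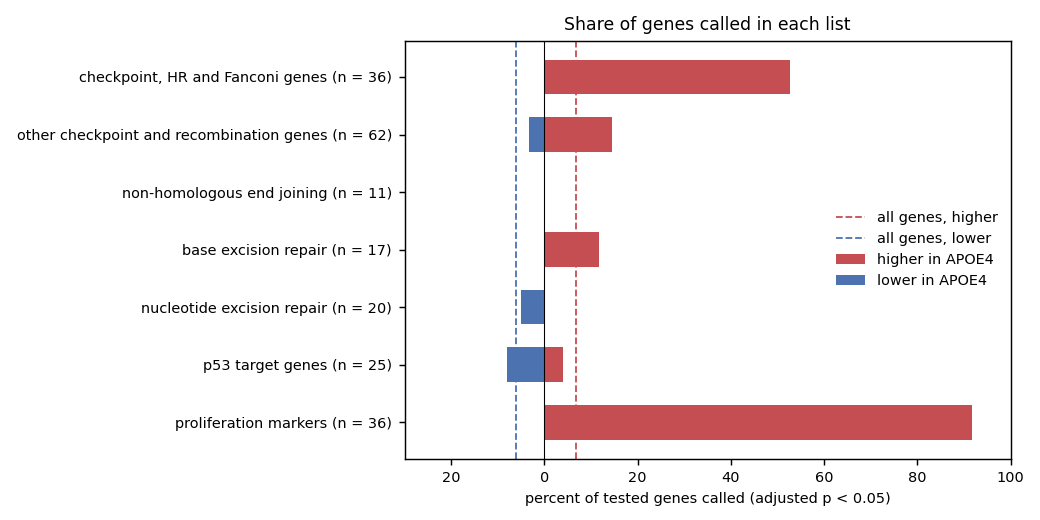
Percent of the tested genes of each list that were called, with higher in *APOE4* to the right of 0 and lower to the left, and dashed lines for the same over all 12481 genes (6.71% higher, 6.09% lower). The members reach 52.8% higher and the proliferation markers 91.7%, while non-homologous end joining, with only 11 genes, has no bar.

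The strand setting of the counting was not given in the sources used here, which bears on members whose exons overlap a gene on the other strand. The overlaps of at least 8% were 16.4% of the exons of Fancc with Gm16133, which has no row in the count table, 15.4% of Rad54l with Lrrc41 (log2 FC 0.02), 10.5% of Fanca with Zfp276 (-0.17, adjusted p = 0.0905), 8.0% of Eme1 with Lrrc59 (0.08) and 16% of Fanci with Polg (-0.11, adjusted p = 0.0642). None of the 4 neighbours with a fold change was called. On the same strand Atrip shares 16% of its exons with Trex1.

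The number of calls depended on single libraries. Leaving out each library in turn gave from 11 to 23 called members, and the count fell by more than 1.5 times to 11 without *APOE3* replicate 26, *APOE3* replicate 30 or *APOE4* replicate 41, and to 12 without *APOE3* replicate 33 or *APOE4* replicate 35. In all 16 of these fits 11 of the 19 were called, namely Ddias, Chek1, Fanca, Brip1, Brca1, Bard1, Brca2, Clspn, Dna2, Rad50 and Topbp1. The calls of Timeless, Blm, Rad51c and Eme1 were made in fewer than 8 of the 16.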

How the data were processed

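The authors deposited unnormalized counts, whole numbers of reads per gene, for 16 poly-A libraries made from 100 ng of RNA with 17 cycles of PCR and read at 50 nt. The submitters' processing notes name STAR, featureCounts, mm10 and hg38, with no version, annotation release or strand setting. Reads carry no molecular identifiers, so precision from depth covers counting error only.

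Genotypes came from the sample labels, and 0 columns were unmapped. The tests were run with edgeR 4.0.16 in R 4.3.3 (filterByExpr by genotype, TMM, genotype as the term, quasi-likelihood F test, Benjamini-Hochberg adjustment over 12481 genes, threshold 0.05). The standard error is the size of the log2 fold change divided by the square root of F. Effects by sex came from 1 fit of 4 groups. The proliferation score is the mean log2 CPM (prior count 2) of 36 markers. Symbols, positions and exon lengths are from GENCODE mouse release 21 (GRCm38), which held 38872 of the mouse identifiers and lacked 184. Python 3.11.15 and matplotlib 3.10.9 drew the figures.

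Members, roles and lists were chosen with earlier results of these data known. All 36 members were accounted for, and of each other list up to 4 called genes with the largest fold change were named, beside proliferation markers without a call and markers at 0, named after their values were seen. Alternatives were DESeq2 size factors, filters, covariates, DESeq2 1.42.0, limma 3.58.1 (voom with quality weights) and each library left out. The slope on the score, the unadjusted counts within each sex and the promoter share among tested genes were added after seeing the data. The fits were checked on simulated data. Some genes and 1 list are not reported here. The authors' other assays were not re-analyzed, and their raw reads were not used here.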

Additional observations from a re-analysis of the deposited data

Results flagged for a closer look

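Each member was examined within each genotype for a library lying far from the other 7, by the gap to its neighbour over the whole range. Chance flags about 1 in 20 groups. Levels of 6 members stood out in 1 library each, 3 of them in *APOE4* replicate 35.

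Exo1 had 15.5 CPM in *APOE4* replicate 35, and the next library had 11.7 CPM. Without that library its log2 fold change was 0.32 in place of 0.39, and it no longer passed the test (adjusted p = 0.0607). In the same library Xrcc2 was high at 8.42 CPM, next to 6.20, and Nbn was low at 18.3 CPM, next to 21.4.

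Ddias had 7.67 CPM in *APOE4* replicate 41, and the next library had 5.51 CPM. Without it the log2 fold change was 0.74, and the call was kept (adjusted p = 0.0128). Mre11a was high in *APOE3* replicate 27 at 25.0 CPM, next to 20.8, and without that library its fold change was 0.15 (adjusted p = 0.0946). Fancc was high in *APOE4* replicate 38 at 22.5 CPM, next to 19.5, and without that library its log2 fold change was -0.17 (adjusted p = 0.0459). This was the only 1 of 16 leave-one-out fits that called Fancc, and with all libraries the adjusted p was 0.159. Leaving out the highest library of *APOE4* by itself moves the estimate down.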

How the results depend on the processing

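DESeq2 size factors gave 19 called members, 16 were called with unfiltered counts and 20 of 35 when each library had to hold 10 counts, while sex as a covariate gave 18, DESeq2's Wald test 22 and limma's voom 19, and no member changed direction under these 6. Without a filter Timeless, Blm and Rad51c lost their call, as with voom, and Rad51c also with sex as a covariate. Calls of Rad51ap1, Fanci and Msh6 were gained with DESeq2 and voom. With the proliferation score as a covariate 0 members and 0 genes were called, and log2 fold changes turned for Chek2 (-0.14), Tipin (-0.069), Mre11a (-0.042), Xrcc2 (-0.32), Rad51ap1 (-0.10), Rad54l (-0.034), Fanca (-0.036), Fancm (-0.0050), Fancd2 (-0.064), Fanci (-0.17), Eme1 (-0.12) and Mus81 (0.00097), and the cause was not tested. Leaving out 1 library gave 11 to 23 called members and 846 (without *APOE4* replicate 41) to 2127 (without *APOE3* replicate 31) called genes, with 853 without *APOE3* replicate 30 and 952 without replicate 33. In these fits Xrcc2 ran from -0.036 (without *APOE4* replicate 35) to 0.092, and was -0.014 without *APOE3* replicate 30. Separate fits of each sex also gave 0 called members. No paired analysis was made, because the genotypes share no replicate numbers and the labels name no pairs. Replicate numbers run from 25 to 33 with *APOE3* and from 35 to 43 with *APOE4*. Any effect of the order of the samples can therefore not be told apart from genotype. Depth limits Atrip, whose SE of 0.339 at 1 to 21 counts was larger than the median fold change of the members (0.31).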

Other observations

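Calls in excision repair were set beside those of all genes, and a link to the use of a sister chromatid was not tested. For base excision repair the share called as higher was 11.8%, and for nucleotide excision repair 0%, against 6.71% of all genes. The share called as lower was 0% and 5.0% for these lists, against 6.09%. Of 20 nucleotide excision repair genes 0 were higher and 1, Xab2, was lower with *APOE4* (log2 FC -0.12, SE 0.035, adjusted p = 0.0314), with a median of -0.04 over the list. Of 17 tested base excision repair genes 2 were higher, Neil3, a glycosylase (0.66, SE 0.157, adjusted p = 0.0122), and Fen1, the flap nuclease that also matures Okazaki fragments (0.32, SE 0.105, adjusted p = 0.0488).

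Of 25 target genes of p53, the factor that ATM and CHEK2 act on, 1 was higher (4.0%) and 2 were lower (8.0%). These shares were near those over all genes (6.71% and 6.09%), and the list's median log2 fold change was -0.01. At an unadjusted p under 0.05, in either direction, were 12 of the 25 targets and 3617 of all 12481 genes. Of the 25 targets 11 had a log2 fold change above 0 and 14 below it. Gtse1, a G2 gene, was higher (0.55, SE 0.148, adjusted p = 0.0220). Bbc3, which encodes the death protein PUMA, was lower (-0.29, SE 0.076, adjusted p = 0.0179), as was Cdkn1a, the p21 inhibitor of cyclin-dependent kinases (-0.11, SE 0.032, adjusted p = 0.0262). Cdkn1a had 230 to 266 CPM in *APOE3* and 225 to 238 CPM in *APOE4* libraries, with all *APOE4* libraries below the *APOE3* median, and its slope on the proliferation score was -0.03.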
